A study of Mus musculus with 7 samples.

Results

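Primary myogenic progenitor cells in differentiation medium for 2 days were compared with cells of the same kind on day 2 of culture in growth medium. Mature miRNAs were quantified by TaqMan PCR, in which a lower threshold cycle (Ct) means more template and 1 cycle corresponds to about 1 log2 unit. The comparison joins 2 of the 7 deposited samples, and it uses 2 of the 6 different day columns in the series. Each column holds 4 rows of Ct for every assay, so that n = 4 rows per medium, and the 8 rows were matched by assay name. All 375 miRNA assays of the plate were members, 40 of them designed on rat sequences (prefix rno), and 241 could be tested.

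All cells were C57BL/6J hind limb muscle progenitors at passage 3, and the labels give no engineered allele. The growth culture stood on type I collagen in Ham's F-10 with 20% fetal bovine serum and 10 ng/ml FGF-2. The differentiation culture was seeded on entactin, collagen IV and laminin, left for 24 h in growth medium (day 0), and then moved to DMEM with 2% horse serum. Medium, coating and vessel therefore changed together and cannot be told apart here. The sources used here do not give the number of mice, how the cells were isolated, or from when the days of the growth culture were counted. The labels also do not say whether the 4 rows are separate cultures or repeated wells, and p-values reflect no more than the spread of these rows, which may be technical.

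Myogenic progenitors are the daughters of satellite cells. In rich medium with FGF-2 they divide, and when serum is withdrawn they leave the cell cycle, switch on the genes of the contractile apparatus and fuse into myotubes. A miRNA is a short RNA cut from a hairpin, from the 5p arm or the 3p arm, and it represses mRNAs that pair with its seed, bases 2 to 8. Several miRNAs often come from 1 transcript, so neighbours in the genome can share their transcription while their seeds differ.

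Those seeds and loci are needed to read the results. Below, the seed is in capitals, sequences run 5′ to 3′, and sequences and positions are RefSeq's for build GRCm38.p6. The first set lies in 6.35 kb of the X chromosome (chrX:53047997-53054349, 7 miRNA genes), where the hairpins of miR-322, miR-503 and miR-351 fall within the span of the lncRNA C430049B03Rik.
miR-322: cAGCAGCAauucauguuuugga
miR-503: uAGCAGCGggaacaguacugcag
miR-351: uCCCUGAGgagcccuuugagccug
miR-542-3p: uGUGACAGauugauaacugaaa
miR-450a-5p: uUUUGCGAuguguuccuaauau
The next set has the seed of miR-322 or of miR-351 but lies elsewhere. It holds miR-16 (chr14:61631936-61631957, within Dleu2), miR-15b (chr3:69009775-69009796, within Smc4), miR-497 (chr11:70234730-70234751) and miR-125b-5p (chr16:77646279-77646300). Of these, miR-16 has a second locus on chromosome 3 beside miR-15b, and miR-125b-5p a second on chromosome 9.
miR-16: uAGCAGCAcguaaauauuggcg
miR-15b: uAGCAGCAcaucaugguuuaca
miR-497: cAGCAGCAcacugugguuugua
miR-125b-5p: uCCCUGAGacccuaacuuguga
The let-7 set shows how closely related the assays' targets are. miR-98 lies within Huwe1 (chrX:151913229-151913250) and let-7i at chr10:122985698-122985719. let-7a and let-7f have 2 copies each, with 1 of each on chromosome 13 (that of let-7f at chr13:48537889-48537910), the other let-7a copy on chromosome 9, and the other let-7f copy on X beside miR-98, the 2 hairpins spanning 0.98 kb.
miR-98: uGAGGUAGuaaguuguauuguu
let-7f: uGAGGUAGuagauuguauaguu
let-7a: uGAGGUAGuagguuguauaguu
let-7i: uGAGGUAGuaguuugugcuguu
The last set gives both arms of the hairpins whose arms differed most between media. The hairpin of miR-615 lies within Hoxc5 (5p arm chr15:103014926-103014947, 3p arm chr15:103014969-103014990) and that of miR-335 within Mest (chr6:30741314-30741336 and chr6:30741354-30741375).
miR-615-5p: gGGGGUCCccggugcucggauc
miR-615-3p: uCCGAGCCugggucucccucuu
miR-335-5p: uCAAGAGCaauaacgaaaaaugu
miR-335-3p: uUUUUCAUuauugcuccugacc

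A Ct was read in 248 to 263 miRNA assays per row, 224 assays gave one in all 8 rows, and 83 gave none in any. Levels were set against MammU6, the small nuclear RNA marked as endogenous control in the deposited files. Its Ct was 13.85, 12.51, 12.73 and 12.55 in rows 1 to 4 of differentiation medium and 12.43, 13.61, 12.64 and 12.72 in growth medium. It came late in row 1 of the former and row 2 of the latter, where the median miRNA assay did not, and a level in those rows is raised by this. A check therefore used each row's median miRNA assay as the reference, against which MammU6 was 0.68 ± 0.33 (SE) log2 units lower in differentiation medium (limma, adjusted p = 0.105 over 5 controls). Every difference of an assay with a Ct in all rows is thus smaller by 0.68 on that scale. None of the 4 other control RNAs passed against MammU6, with snoRNA135 at -0.04, snoRNA202 at 0.39, U87 at -0.46 and Y1 at 0.65 (each SE 0.52), whereas U87 at -1.14 and snoRNA135 at -0.72 were lower against the median assay (adjusted p = 0.0175 for both). Rows separated by medium on the first principal component (65.0% of the variance), while the second (16.4%) set growth rows 1 and 3 apart from growth rows 2 and 4.

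After 2 days, 58 of 241 tested miRNA assays (24.1%) differed between the media, 47 of them higher (19.5%) and 11 lower (4.56%) in differentiation medium. The test was limma on the log2 level against MammU6 with Benjamini-Hochberg adjustment over all tested assays, and 81 assays had an unadjusted p under 0.05. The median over all tested assays was 0.36 log2 units. Against the median assay the split turned, to 32 higher (13.3%) and 64 lower (26.6%) among 96 (39.8%), and the median over all tested assays was -0.31. A total of 43 assays (17.8%) passed in the same direction against both references, 32 higher and 11 lower. The rows of the media did not overlap in 66 assays (27.4%). All 11 lower calls passed under both references, and 15 of the higher calls did not. The median assay could hardly undo a lower call, because it shifts the difference of an assay with a Ct in all rows by -0.68. It is therefore a check of the higher calls only. The number of lower calls rested on single rows, being 17 without differentiation row 1 and 6 without row 2 or without row 3. With growth rows 1 and 3 left out together, 24 assays were higher and 7 lower.

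Muscle-restricted miRNAs were higher in differentiation medium in every tested case, 6 of 6 against a background of 19.5%, with a median difference of 3.40 log2 units against 0.36 over all assays. miR-1 and both miR-133 assays gave a Ct in every row of both media. The seventh, miR-208, gave a Ct in 1 row of each medium and was not tested. miR-1, which represses Hdac4 in mouse myoblasts and thereby favours differentiation, came 4.80, 6.06, 5.78 and 5.73 cycles after MammU6 in differentiation medium and 9.09, 9.41, 9.50 and 9.98 cycles after it in growth medium. All differentiation rows came before all growth rows. The difference of 3.90 ± 0.40 log2 units, about 15.0-fold, had an adjusted p of 8.52e-05, and the rat-sequence assay for miR-1 gave 3.48 ± 0.38.

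The miR-133 miRNAs are transcribed together with miR-1 family members and act on SRF and on splicing factors in mouse muscle. miR-133a came -0.63, -0.26, 0.07 and 0.31 cycles after MammU6 in differentiation medium and 2.23, 2.77, 2.64 and 2.95 in growth medium. The groups did not overlap, and the difference was 2.77 ± 0.37 log2 units (adjusted p = 0.000334). miR-133b differed by 2.71 ± 0.41 (adjusted p = 0.000532), again with no overlap of rows. How far each miR-133 assay reads the other's target is not given in the sources used here, so they may not be independent members.

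miR-499 and miR-208b sit in myosin heavy chain genes, within Myh7b (chr2:155622893-155622913) and Myh7 (chr14:54975710-54975731), and share 6 bases from base 2 on, which leaves their seeds unequal only at the end.
miR-499: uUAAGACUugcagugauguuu
miR-208b: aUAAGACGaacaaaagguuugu
Values of miR-499 were 14.42, 16.43, 16.22 and 15.43 cycles after MammU6 in differentiation medium and 18.69, 20.19, 20.35 and 21.51 in growth medium, a difference of 4.56 ± 0.62 log2 units (adjusted p = 0.000344). Those of miR-208b were 17.25, 16.97, 17.10 and 17.35 against 18.90, 20.80, 19.42 and 21.17, a difference of 2.90 ± 0.51 (adjusted p = 0.00147). The differentiation rows of miR-208b lay close together and the growth rows were spread. miR-486, which is abundant in muscle and blood and targets Pax7, came at 15.43, 16.14, 17.00 and 16.19 cycles against 21.03, 19.19, 21.85 and 21.82. Its difference of 4.78 ± 0.60 log2 units, about 27.5-fold, was the largest of the muscle-restricted set (adjusted p = 0.000245). In growth medium miR-486, miR-499 and miR-208b were read late. Unlike miR-1 and the miR-133 assays, they could not be tested where a mean Ct under 32 was required in both media. The size of their differences is therefore less certain. These are bulk cultures, in which a larger share of differentiated cells and more miRNA per cell cannot be told apart.

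**Figure D1:**
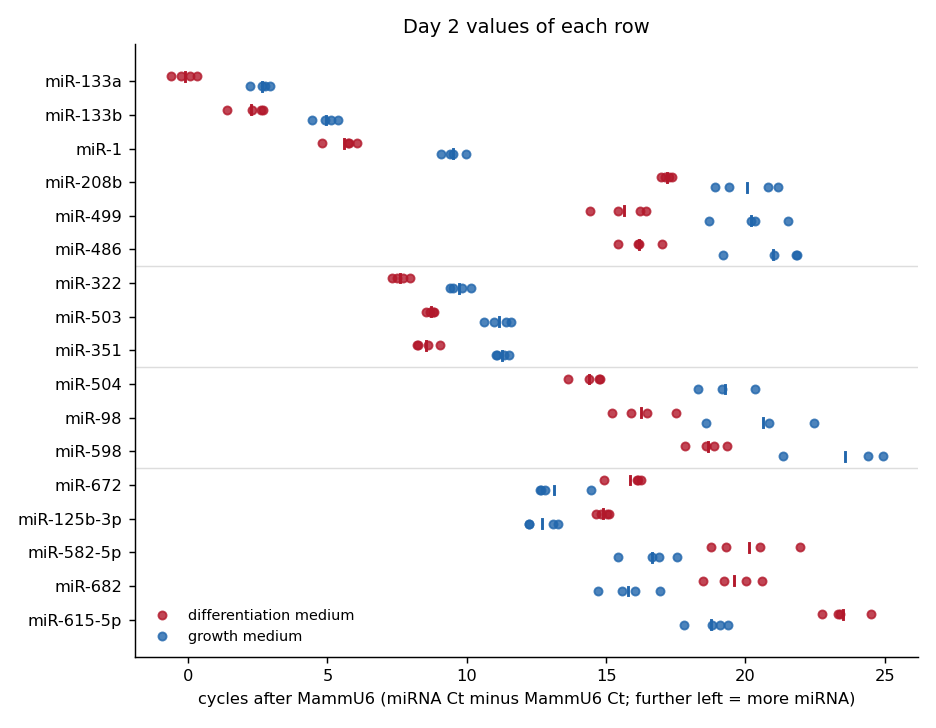
Cycles after MammU6 on day 2 (miRNA Ct minus MammU6 Ct in the same row, smaller meaning more miRNA) for 17 miRNAs, with 1 point per row (red differentiation, blue growth medium) and a bar at the mean. In the upper blocks red points lie left of blue, as for miR-1 (4.80 to 6.06 against 9.09 to 9.98), and in the lowest block right of blue, as for miR-615-5p. miR-504, miR-98 and miR-598 have 3 growth points because 1 well gave no Ct.

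Of 22 tested miRNAs that other tissues also express but that have a reported role in differentiating myoblasts, 4 (18.2%) were higher, near the 19.5% over all assays, and none lower, and their median was 0.40 log2 units against 0.36 over all assays. The 4 were miR-98, miR-128a, miR-503 and miR-322. miR-128a, which is best known from neurons, came 8.08, 9.28, 9.18 and 9.35 cycles after MammU6 in differentiation medium and 12.04, 10.99, 12.17 and 12.00 in growth medium. Its difference was 2.83 ± 0.44 log2 units (adjusted p = 0.000581), with no overlap of rows. By the median assay 10 of the 22 (45.5%, against 26.6% over all assays) were lower, which none was by MammU6, and these counts therefore depend on the reference. They included miR-31 (-1.30), which holds back Myf5 in mouse satellite cells, miR-155 (-1.81), and miR-221 (-1.03) and miR-222 (-0.87), which repress the cell cycle inhibitor p27. On the MammU6 scale miR-221 stood at -0.35 ± 0.52 (adjusted p = 0.65) and miR-222 at -0.19 ± 0.39 (adjusted p = 0.75).

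In the X-linked cluster of miR-322, miR-503, miR-351, miR-542 and miR-450a, 5 of 6 tested assays were higher in differentiation medium under both references (13.3% over all assays), and the median was 1.95 log2 units. miR-322 and miR-503 repress Cdc25a in mouse myoblasts and so slow the cell cycle. miR-322 came 7.30, 7.95, 7.72 and 7.51 cycles after MammU6 in differentiation medium and 9.41, 9.50, 9.81 and 10.15 in growth medium, 2.10 ± 0.36 log2 units apart (adjusted p = 0.00127). miR-503 came at 8.67, 8.79, 8.81 and 8.52 cycles against 10.99, 10.63, 11.40 and 11.60, 2.46 ± 0.36 log2 units apart (adjusted p = 0.000532). Neither pair of groups overlapped. miR-351 differed by 2.73 ± 0.36 (adjusted p = 0.000334), with 8.25 to 9.03 cycles against 11.04 to 11.53, and its rat-sequence assay by 2.21 ± 0.33. miR-542-3p at 1.81 ± 0.42 and miR-450a-5p at 1.47 ± 0.38 also passed (adjusted p = 0.00834 and 0.0153). miR-542-5p stood at 1.00 ± 0.39 and did not pass (adjusted p = 0.0924). The seventh assay on the plate, miR-450b-5p, gave a Ct in 2 rows of differentiation medium only.

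The seeds printed above show that this cluster shares seeds with miRNAs of other loci, which gave other values. Of 6 tested miRNAs with the seed AGCAGCA, miR-322 was higher, and miR-15a, miR-15b, miR-16, miR-195 and miR-497 lay between -0.95 and -0.37 log2 units and did not pass. miR-16, which represses cyclins, came 5.53, 6.05, 5.48 and 5.28 cycles after MammU6 in differentiation medium and 4.62, 4.67, 4.58 and 5.03 in growth medium. Every growth row was earlier than every differentiation row, as in 13 of 241 assays (5.39%), yet its difference of -0.86 ± 0.35 did not pass (adjusted p = 0.102). With the median assay as reference 4 of these 5 were lower (26.6% over all assays), miR-16 at -1.54 among them. Of the 3 with the seed CCCUGAG, miR-351 was higher, while miR-125b-5p at -0.12 ± 0.52 and miR-125a-5p at -0.04 showed no detectable difference on the MammU6 scale. miR-322 and miR-16 differ at 10 of 22 bases, all outside the seed.

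A second X-linked group, miR-188, miR-362, miR-500, miR-501 and miR-532, lies in 10.82 kb within Clcn5 (chrX:7237683-7248497), a chloride transporter gene. All 6 tested assays were higher against MammU6 (19.5% over all assays), with a median of 1.73 log2 units. Against the median assay 3 of the 6 were higher as well (13.3% over all assays). 2 of them share a seed.
miR-500: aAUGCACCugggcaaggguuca
miR-501-3p: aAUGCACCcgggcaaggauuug
miR-501-3p was higher by 2.68 ± 0.54 log2 units (adjusted p = 0.0034), at 8.13, 9.35, 9.22 and 9.52 cycles after MammU6 against 12.65, 10.43, 12.38 and 11.47. miR-500 was higher by 1.51 ± 0.48 (adjusted p = 0.0387), among the calls nearest the threshold, and miR-362-3p by 1.75 ± 0.54. The others were miR-188-5p at 2.35 ± 0.56, miR-532-3p at 1.70 ± 0.55 and miR-532-5p at 1.39 ± 0.43, none of which passed against the median assay (adjusted p = 0.054, 0.0925 and 0.0613). Rows of miR-362-3p and miR-532-3p overlapped, since growth row 2 lay within the range of the differentiation rows. When each of the 8 rows was left out in turn, the calls of miR-362-3p and miR-500 were lost 6 times and those of miR-532-3p and miR-532-5p 7 times.

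miR-183, miR-96 and miR-182 come from 3.82 kb of chromosome 6 (chr6:30165918-30169737) and are best known from sensory cells. Their seeds resemble each other without being the same.
miR-183: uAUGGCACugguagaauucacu
miR-96: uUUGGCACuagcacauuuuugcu
miR-182: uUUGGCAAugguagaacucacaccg
All 3 were higher against MammU6 (19.5% over all assays) with no overlap of rows (22% over all assays), by 2.27 ± 0.58, 3.63 ± 0.62 and 1.97 ± 0.44 log2 units. miR-96 came 15.92, 16.81, 16.34 and 16.74 cycles after MammU6 in differentiation medium and 21.20, 18.06, 20.83 and 20.23 in growth medium (adjusted p = 0.00127). Growth row 2 was the earliest growth row for all 3. miR-96 passed against the median assay too, at 2.95 (adjusted p = 0.00165), and miR-183 and miR-182 did not (adjusted p = 0.0509 and 0.0539).

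Of 9 let-7 family members, which share the seed GAGGUAG and repress growth-promoting mRNAs such as those of Ras and Hmga2, 2 were higher, miR-98 and let-7f (22.2%, near the 19.5% over all assays), and the family ran from 0.14 to 4.36 log2 units with a median of 0.72. miR-98 came 15.21, 15.90, 17.50 and 16.45 cycles after MammU6 in differentiation medium and 22.45, 18.58 and 20.84 in growth medium, where row 3 gave no Ct. It differed by 4.36 ± 0.84 (adjusted p = 0.0034). let-7f differed by 2.66 ± 0.62 (adjusted p = 0.00868), with 11.76 to 12.76 cycles against 15.42, 13.01, 16.02 and 15.82, growth row 2 again being the earliest. let-7a stood at 1.84 ± 0.72 and did not pass (adjusted p = 0.0902), and let-7i at 0.14 ± 0.49. The target sequences are close, let-7f having 1 differing base from let-7a and miR-98 having 3 from let-7f. How far each assay reads its relatives is not given in the sources used here.

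The imprinted Dlk1-Dio3 region on chromosome 12 encodes many miRNAs that are expressed in embryonic and regenerating muscle. Of its 47 assays on the plate, 33 were tested and 9 (27.3%, against 19.5% over all assays) were higher, none lower, with a median of 1.08 log2 units. Under both references 4 (12.1%) were higher, against 13.3% over all assays. Rows lay without overlap above growth medium in 15 of the 33, against 53 of 241 (22%) over all assays. The 2 printed here are the largest difference, miR-381 (chr12:109726870-109726891), and miR-127 (chr12:109592888-109592909), which lies antisense within Rtl1.
miR-381: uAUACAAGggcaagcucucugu
miR-127: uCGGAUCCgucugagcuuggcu
miR-381 came 16.13, 16.29, 15.79 and 16.36 cycles after MammU6 in differentiation medium and 19.63, 17.93, 19.61 and 19.94 in growth medium, 3.13 ± 0.47 log2 units apart (adjusted p = 0.000532). miR-544 at 2.60 ± 0.47, miR-543 at 1.66 ± 0.47 and miR-127 at 1.47 ± 0.41 also passed under both references. miR-493 at 2.68 ± 0.64, miR-370 at 1.95 ± 0.42 and miR-431 at 1.79 ± 0.46 passed against MammU6 only, as did miR-376a at 1.39 and miR-136 at 1.31. miR-494 stood at -0.96 ± 0.65 and was lower against the median assay alone (-1.64, adjusted p = 0.0161). Calls of miR-127 and miR-543 were lost when some single rows were left out.

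**Figure D2:**
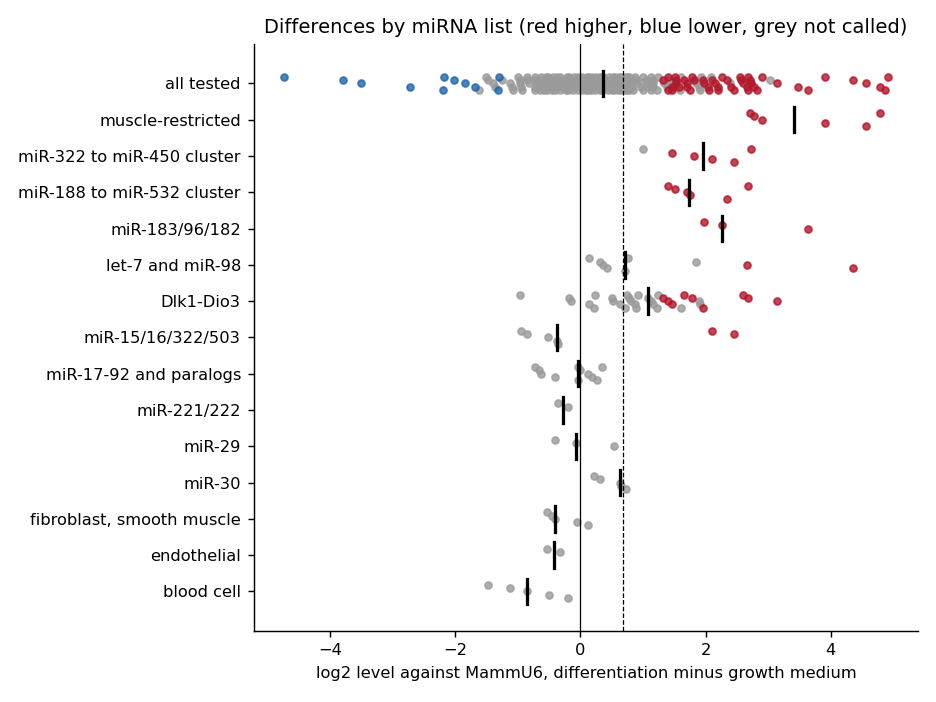
Difference in log2 level against MammU6 on day 2 (differentiation minus growth medium), with 1 point per tested assay, red called higher, blue called lower and grey not called, and a black bar at each list's median. The solid line is no difference against MammU6 and the dashed line, at 0.68, no difference against the median assay. All 6 muscle-restricted points lie right of both lines, and no point of the lists from miR-17 and its paralogs to miR-30 or of the marker lists shown is called.

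The cluster from miR-17 to miR-92a, together with its paralogs, is known to promote proliferation and to decline at cell cycle exit in several cell types. None of its 11 tested assays passed in either direction, against 24.1% over all assays, and the median was -0.03 log2 units. The 6 with the seed AAAGUGC lay between -0.66 and 0.34. Among them miR-17 and miR-106a differ at 1 of 23 bases, so their assays may not be independent. miR-17 stood at -0.66 ± 0.37 (adjusted p = 0.23) and miR-92a at -0.72 ± 0.48 (adjusted p = 0.32). With the median assay 5 of the 11 (45.5%, against 26.6%) were lower, among them miR-17 at -1.34 (adjusted p = 0.00409), so that a difference of this family depends on the reference. The lists headed by miR-23, miR-29, miR-30 and miR-181 held no call against MammU6 either. Within them the 3 miR-29 members, which rise as cultured mouse myoblasts differentiate, lay at -0.40, 0.53 and -0.07, and miR-181a, which acts on Hox-A11, at 1.59 ± 0.57 (adjusted p = 0.0686).

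Outside the lists, miR-504 and miR-598 had the largest differences of all. miR-504 (within Fgf13 at chrX:59097705-59097726), known to repress p53 in human cells, is printed for its size of effect beside miR-139-5p (within Pde2a at chr7:101475382-101475403).
miR-504: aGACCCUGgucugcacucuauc
miR-139-5p: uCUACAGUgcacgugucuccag
miR-504 came 13.64, 14.40, 14.79 and 14.75 cycles after MammU6 in differentiation medium and 18.29, 20.34 and 19.14 in growth medium rows 2 to 4, row 1 having no Ct. The gap of 4.86 ± 0.55 log2 units, about 29.1-fold, had an adjusted p of 0.000193. miR-598 came at 17.82, 18.86, 19.34 and 18.57 cycles against 24.41, 21.35 and 24.93, with no Ct in growth row 3 (4.92 ± 0.78, adjusted p = 0.00112). Its mean Ct in growth medium was 36.5, late in a run of 40 cycles. miR-139-5p came at 7.08, 7.72, 7.83 and 8.02 cycles against 10.31, 10.01, 10.36 and 10.26, a difference of 2.57 ± 0.36 (adjusted p = 0.000388) with tight rows in both media.

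For 2 assays a Ct was present in all 4 rows of differentiation medium and in no growth row, and for none the other way. miR-139-3p, the other arm of the miR-139 hairpin, had a mean Ct of 38.0 and was at least 4.30-fold higher with the absent wells set to 40 cycles. rno-miR-598-5p had a mean Ct of 36.4 and was at least 12.7-fold higher on the same rule. On day 5 of differentiation miR-139-3p again had a Ct in 4 rows, at 21.26 ± 1.31 (SD) cycles after MammU6. The day 2 Ct of both assays are late, and the limits make no allowance for the spread between wells.

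Lower in differentiation medium against MammU6 were 11 assays, and the calls furthest from 0 are shown with their sequences.
miR-682: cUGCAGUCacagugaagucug
miR-582-5p: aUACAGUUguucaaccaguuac
miR-672: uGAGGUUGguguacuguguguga
miR-615-5p, from the Hoxc cluster, came 23.41, 23.31, 24.52 and 22.75 cycles after MammU6 in differentiation medium and 19.38, 17.78, 19.10 and 18.79 in growth medium. This difference of -4.74 ± 0.49 log2 units (adjusted p = 8.52e-05) was the largest negative one, and no rows overlapped. miR-682, whose locus lies within the pseudogene Gm4149 (chr13:75645119-75645139), came at 19.24, 18.47, 20.02 and 20.60 cycles against 14.69, 15.56, 16.02 and 16.92 (-3.79 ± 0.57, adjusted p = 0.000532). miR-582-5p, from Pde4d (chr13:109324753-109324774), came at 19.29, 18.77, 21.95 and 20.53 against 16.65, 15.43, 16.89 and 17.55 (-3.50 ± 0.68, adjusted p = 0.003). All differentiation rows of these 3 were later than all growth rows.

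miR-672, from Nexmif on the X chromosome (chrX:104116228-104116250), came at 14.92, 16.13, 16.12 and 16.26 cycles against 12.62, 12.82, 12.65 and 14.45 (-2.72 ± 0.51, adjusted p = 0.00211). miR-125b-3p at -2.19 ± 0.39 and miR-187 at -2.19 ± 0.45 passed with no overlap of rows, as did miR-449a, a relative of the p53-responsive miR-34 family, at -1.31 ± 0.39 and miR-125a-3p at -1.30 ± 0.37. miR-335-3p at -2.01 ± 0.62, the inflammation-related miR-147 at -1.83 ± 0.55 and miR-582-3p at -1.69 ± 0.47 passed with overlapping rows. The last 5 named lost the call in some settings with 1 row left out. miR-383 at -1.62 and miR-155 at -1.13 were the lower assays just short of the threshold (adjusted p = 0.0596 and 0.0639).

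Where both arms are cut from the same hairpin, the ratio of the arms needs no reference RNA. Among 19 hairpins with both arms tested, the ratio of 5p to 3p differed between the media in 6 (31.6%), in limma adjusted over the 19, and these pairs were drawn up after the data had been seen. For miR-615 the 5p arm lay 9.10 log2 units below the 3p arm in differentiation medium and 4.77 below it in growth medium, in Ct read directly, so the ratio differed by -4.33 ± 0.41 (adjusted p = 9.62e-05). The late Ct of miR-615-5p in differentiation medium enter this ratio too. miR-615-3p itself came 13.63, 14.51, 14.98 and 14.49 cycles after MammU6 against 13.02, 14.56 and 13.79 in growth rows 2 to 4, overlapping, with a difference of -0.61 ± 0.50 (adjusted p = 0.408). For miR-335 the ratio moved the other way, by 2.59 ± 0.39 (adjusted p = 0.000862), with the 3p arm lower and the 5p arm at 0.58 ± 0.58 (adjusted p = 0.52).

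For miR-125a and miR-125b, too, the ratio of 5p to 3p was larger in differentiation medium. miR-125b has 2 hairpins, on chromosomes 9 and 16, so its ratio is not that of a single precursor. In both, the 5p arm, the guide strand known from muscle and many other tissues, stood at -0.12 and -0.04 while the 3p arm was lower, and the ratio differed by 2.08 ± 0.54 for miR-125b (adjusted p = 0.0176) and 1.27 ± 0.23 for miR-125a (adjusted p = 0.00205). In miR-582, as in miR-615, the 5p arm was lower by more than the 3p arm (-1.82 ± 0.55, adjusted p = 0.0298). miR-324 differed by 0.93 ± 0.25 (adjusted p = 0.019). With growth row 1 left out 3 of the pairs passed, and the calls of miR-125b, miR-324 and miR-582 were those lost when single rows were left out. Assay efficiency differs between arms, so only the change of a ratio between media can be read, not the ratio itself.

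**Figure D3:**
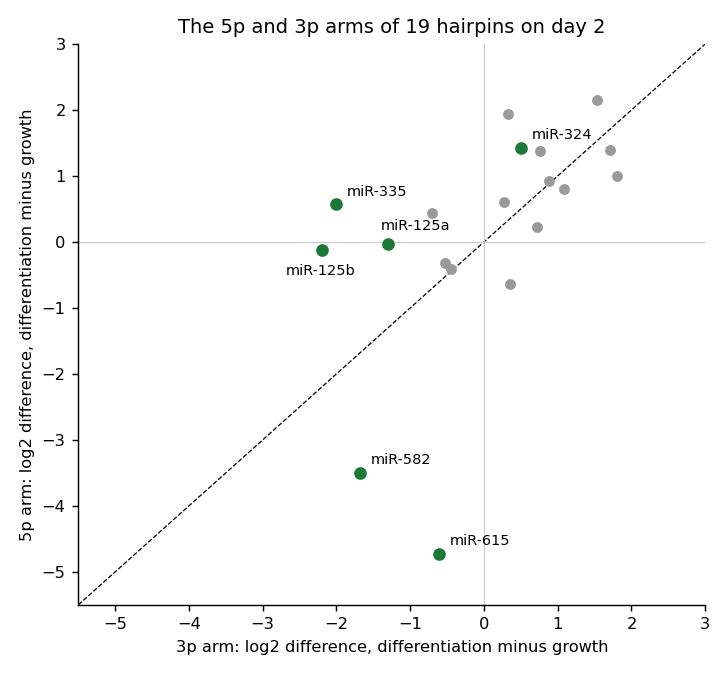
Difference in log2 level on day 2 (differentiation minus growth medium) of the 5p arm against that of the 3p arm, with 1 point per hairpin. Points on the dashed line have equal differences in both arms, and green points are the 6 hairpins whose ratio of arms differed. miR-615 lies far below the line (5p -4.74, 3p -0.61) and miR-335 above it (5p 0.58, 3p -2.01).

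No list of markers of other cell types had more than 1 call against MammU6. None of 5 fibroblast and smooth muscle markers (median -0.41 log2 units), 2 endothelial (-0.42), 5 blood cell (-0.84) and 3 epithelial markers passed against MammU6, where 24.1% of all assays did. miR-128a was the only one of 3 tested neural markers to pass. miR-124, a defining neuronal miRNA, was not tested, having no Ct in differentiation medium and Ct of 25.93, 27.15 and 34.93 in growth rows 1, 3 and 4. On the scale of the median assay 3 of the 5 fibroblast, both endothelial and 3 of the 5 blood cell markers were lower, against 26.6% over all assays. Of the 3 epithelial markers 1 was lower on it, miR-205. The summed level of the 5 fibroblast and smooth muscle markers spanned -5.72 to -4.22 log2 units against MammU6 in differentiation rows and -5.59 to -4.45 in growth rows, and that of the blood cell markers -8.04 to -7.38 and -7.32 to -6.0. The blood cell sums were thus lower in every differentiation row, but they came almost wholly from miR-155. It came 7.40 to 8.06 cycles after MammU6 in differentiation rows and 6.01 to 7.33 in growth rows, and the other members came much later. miR-155 is also among the miRNAs with a reported role in myoblasts, so these sums do not describe the list as a group. Within the list miR-223 stood at -1.47 and miR-155 at -1.13. The summed muscle-restricted level spanned -0.03 to 0.97 and -2.69 to -2.01. Of the epithelial markers, miR-200a, miR-200b and miR-429 gave no Ct in either medium, whereas miR-200c, miR-203 and miR-205 gave one in all 8 rows. No Ct was read in either medium for 6 of 11 pluripotent cell markers, and none of the 11 could be tested. The part of other cell types in the differences was not tested.

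The levels in the other 4 day columns are given beside those of day 2 as values only, because comparisons that share a column are not independent. miR-1 stood at 8.89 ± 0.55 (SD) cycles after MammU6 on day 0 of the differentiation course, at 8.61 ± 0.91 on day 1, at 5.59 ± 0.55 on day 2 and at 3.62 ± 0.52 on day 5, and at 9.49 ± 0.37 on day 2 and 7.43 ± 0.72 on day 5 in growth medium. Day 0 of the course and day 2 of growth medium, both in growth medium, thus lay close for miR-1. They also did for miR-503, at 11.40 ± 0.49 and 11.15 ± 0.43 cycles, and for miR-615-5p, at 18.62 ± 0.45 and 18.76 ± 0.70.

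For others among the day 2 calls the day 0 level was near that of differentiation day 2. The miRNAs named for their day 0 level are examples, and where it lay over all day 2 calls was not counted. miR-682 stood at 19.39 ± 1.28, 19.51 ± 1.28, 19.58 ± 0.93 and 19.41 ± 0.74 cycles on days 0, 1, 2 and 5 of the differentiation course, and at 15.80 ± 0.93 and 17.94 ± 0.50 on days 2 and 5 in growth medium. The differentiation course was flat for this miRNA, and the 2 growth columns were earlier. miR-147 was similar, at 17.76 ± 1.35 cycles on day 0 and 17.96 ± 0.91 on day 2 of the course against 16.12 ± 0.85 on day 2 of growth. miR-208b stood at 18.10 ± 0.67 cycles on day 0, 17.17 ± 0.17 on day 2 and 20.07 ± 1.09 on growth day 2, so its day 0 level lay nearer the former. miR-504 lay between, at 17.50 ± 1.11 on day 0, 14.39 ± 0.53 on day 2 and 19.26 ± 1.03 on growth day 2.

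**Figure D4:**
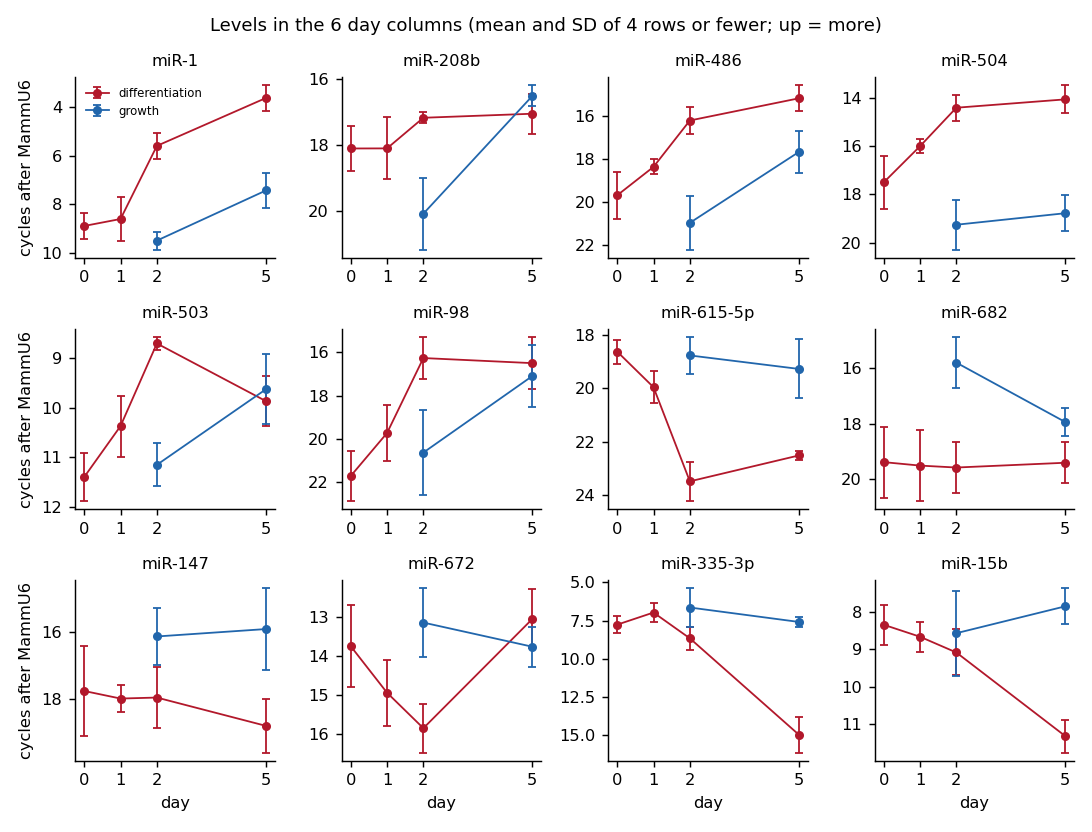
Mean cycles after MammU6 with SD over the 4 rows (3 where a well had no Ct) for 12 miRNAs in the 6 day columns, on an inverted axis so that up means more miRNA, with differentiation in red and growth medium in blue. The red and blue points of day 2 are the comparison described here. miR-682 shows a flat red course near 19.5 cycles, and miR-335-3p reaches 14.95 cycles on day 5 of differentiation.

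The same contrast of media exists on day 5, with columns that day 2 does not share. Rows of both days may still come from the same cultures, and the test of the change took no account of this. The medium difference changed between the days for 10 of 243 tested assays (4.12%, limma, adjusted p under 0.05), 2 upward (0.823%) and 8 downward (3.29%). The 2 X-linked regulators of Cdc25a were among the latter. miR-503 went from 2.46 log2 units on day 2 to -0.24 on day 5 and miR-322 from 2.10 to -0.32, and the rat-sequence miR-351 assay from 2.21 to -0.10. The mouse-sequence miR-351 assay stood at 2.73 and 0.89, a change that did not pass (adjusted p = 0.0838). miR-208b also had no positive difference left on day 5, at -0.54 after 2.90, its growth level having come 16.50 ± 0.32 cycles after MammU6 by then.

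miR-335-3p, miR-15b, miR-135a and miR-195 had more negative differences on day 5, at -7.36, -3.49, -3.98 and -2.14 log2 units after -2.01, -0.52, -1.0 and -0.38. miR-672 went from -2.72 to 0.72. miR-666-5p, a Dlk1-Dio3 miRNA with 3 usable growth rows on each day, went from 1.6, which did not pass, to 7.47. By the median assay 44 assays (18.1%) changed, 15 upward (6.17%) and 29 downward (11.9%), and the 10 were among them. With the rows of late MammU6 left out the count was 70, and without growth day 2 row 2 alone it was 47, so the number of changes depends on those rows. miR-195 lost its call with 9 of the 16 rows left out in turn.

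**Figure D5:**
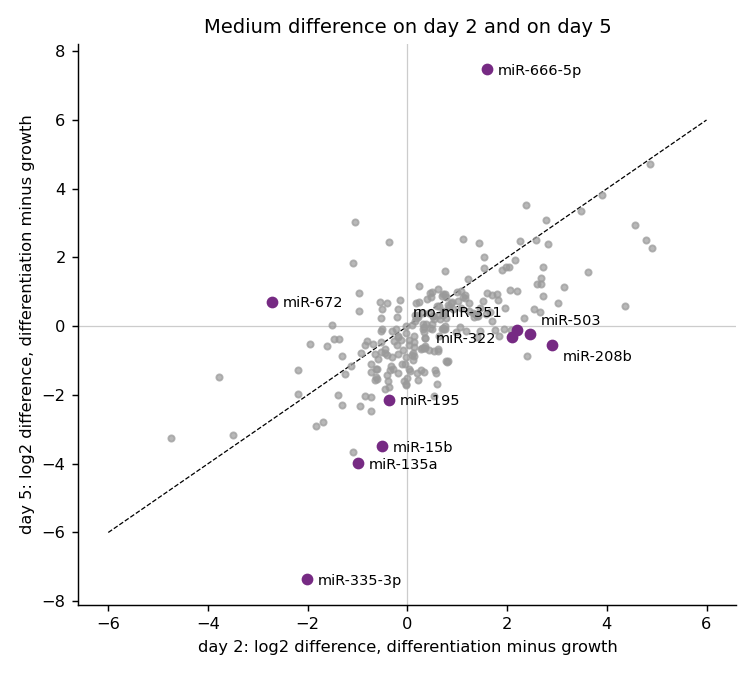
Medium difference in log2 level (differentiation minus growth) on day 5 against that on day 2, with 1 point per assay tested on both days. Purple points are the 10 whose difference changed, and the dashed line marks equal differences. miR-503 and miR-322 lie near 0 on day 5 (-0.24 and -0.32) after more than 2 log2 units on day 2.

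The plate held a mouse-sequence and a rat-sequence assay of the same name for 16 miRNAs, and both could be tested for 7. Both were higher for miR-1 (3.90 and 3.48 log2 units), miR-351 (2.73 and 2.21), miR-339-3p (1.53 and 2.04) and miR-532-5p (1.39 and 2.20). For miR-381 the pair read 3.13 and 2.08, the latter not passing (adjusted p = 0.148), and for miR-224 -0.21 and -0.20. miR-345-3p gave -0.70 and 0.30, of which neither passed. Among the other pairs, rno-miR-543 and rno-miR-409-5p gave no Ct in any row, while the mouse-sequence assays of both gave one in all 8, that of miR-543 being called higher.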

How the data were processed

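Raw Ct (unit: cycles, not normalized) are what the authors deposited, with 4 wells per assay and day, per the file headers. Per the labels' protocols, RNA was isolated with TRIzol, RNA of integrity number over 9 was used, and TaqMan assays ran for 40 cycles on an Applied Biosystems 7900HT. Software, baseline, threshold, plates and pooling are not given in the sources used here. Repeated day columns (8) were identical to the columns they repeat.

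Level was MammU6 Ct minus miRNA Ct of the same row (log2). Rows were numbered by their order within each assay, and the labels do not say that rows of equal number belong together. An assay was tested with at least 3 of 4 wells read in both columns and a mean Ct under 35 in at least 1. The 8 rows entered limma 3.58.1 (R 4.3.3, lmFit and eBayes), two-sided, adjusted p under 0.05. In a single run of simulated data for this comparison (241 assays) 20 assays were changed at each size. A difference of 1 log2 unit was found in 10% of cases, of 2 in 70% and of 3 in 90%, so the number of rows limits the precision. Noise was drawn independently for each assay, so a late MammU6 that moves all assays of a row together was not simulated. The change to day 5 used 16 rows of 4 columns.

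Named miRNAs were up to 15 each way with the largest differences and no overlap of rows, all tested members of 4 lists (muscle-restricted, the cluster of miR-17 and its paralogs, the miRNAs with the seed of miR-16 or miR-503, and miR-221 with miR-222), up to 4 of each other list, the controls, and up to 5 each way that changed by day 5. Some others are named as neighbours, arms or near the threshold, chosen after their values were seen. The miRNAs and lists were chosen with earlier results of these data known. Assays were matched to RefSeq names by hand, taking the main arm where the name gives none, and 52 of 54 names matched. Alternatives were other references, filters, thresholds and left-out rows. Figures were drawn with matplotlib in Python.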

Additional observations from a re-analysis of the deposited data

Results flagged for a closer look

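Of 147 groups of 4 rows examined, 11 held a row set apart by Dixon's ratio (its gap to the nearest row divided by the range of the group). Chance flags about 1 in 20 groups. Of these, 5 were row 1 of differentiation medium. There the MammU6 Ct was 13.85 (others 12.51 to 12.73), and miR-362-3p came 9.98 cycles after MammU6 (others 11.06 to 11.16), miR-128a 8.08 (9.18 to 9.35), miR-675-3p 9.98 (11.12 to 11.35) and miR-672 14.92 (16.12 to 16.26). In growth row 2, where MammU6 was late too, miR-362-3p came at 10.97 cycles (12.99 to 13.32), miR-381 at 17.93 (19.61 to 19.94), miR-128a at 10.99 (12.00 to 12.17), miR-125a-5p at 6.26 (6.76 to 6.85) and snoRNA135 at 5.56 (6.35 to 6.46). In growth row 4 miR-672 came at 14.45 cycles (12.62 to 12.82).

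The medium difference changed from day 2 to day 5 in limma's test of the change itself for 10 assays. It went up by 5.87 log2 units for miR-666-5p and by 3.44 for miR-672. The change was -5.35 for miR-335-3p, -3.44 for miR-208b, -2.98 for miR-135a, -2.97 for miR-15b, -2.70 for miR-503, -2.42 for miR-322, -2.31 for rno-miR-351 and -1.76 for miR-195.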

How the results depend on the processing

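Of 50 called miRNA assays named, 24 kept their call in every setting in which they could be tested. Counted in the same way, 30 kept it under every reference and 37 with every single row left out, and none reversed. A setting in which an assay was not testable did not count as a loss. Besides left-out single rows, miR-98, miR-504 and miR-598 were tested in 14 settings, where miR-1 was in 17. Calls at the main setting numbered 58 (47 higher, 11 lower). With the median assay they numbered 96 (64 lower) and against snoRNA135 94 (73 higher, 21 lower). U87 gave 72 higher and 6 lower, Y1 27 higher and 35 lower, and snoRNA202 and the mean of the 4 other controls 25 lower each. The day mean of MammU6, which needs no matching of rows, gave 75 calls (58 higher, 17 lower). Leaving out single rows gave 44 to 75 calls (34 to 64 higher, 6 to 17 lower). Without both rows of late MammU6 the count was 91 (68 higher, 23 lower), without growth rows 1 and 3 it was 31 (24 and 7), the latter chosen after seeing the data, and at adjusted p under 0.01 it was 36 (30 and 6). The change to day 5 counted 44 against the median assay, 8 to 47 with single rows left out and 70 without rows of late MammU6. Arm pairs called were 3 to 8 with single rows left out, the fewest without growth row 1. Assays with a Ct in every row of 1 medium and no row of the other were 2 to 3. The labels number no rows, so rows were not taken as pairs. With row position as a replicate block 69 passed (55 higher, 14 lower).

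The values that changed sign were all of miRNAs not called. They were 2.83 for miR-615-3p with undetermined wells at 40 cycles, 0.34 for miR-125b-5p, 0.43 for miR-125a-5p, 0.11 for miR-221 and 0.27 for miR-222 with U87, and 0.0025 for miR-125a-5p with snoRNA135. With Y1 they were -0.065 for miR-335-5p and -0.15 for miR-324-3p, and with the median assay -0.10 and -0.18. Single rows left out gave -0.51 to 0.25 for miR-125b-5p, -0.17 to 0.10 for miR-125a-5p, -0.83 to 0.018 for miR-15b, -0.76 to 0.02 for miR-221 and -0.38 to 0.0025 for miR-222. With growth rows 2 and 4 left out miR-125b-5p was 0.10, miR-125a-5p 0.13, miR-15b 0.30 and miR-222 0.058, and with rows 1 and 3 left out miR-324-3p was -0.043. The cause was not tested. The number of rows per column (4) limits the precision.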

Other observations

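Where the genes lie was looked at after the differences were known, so it is a description without a test. RefSeq placed 227 of 229 tested mouse-sequence assays on chromosomes. Of 26 assays whose only locus is on the X chromosome, 14 (53.8%) were higher in differentiation medium against MammU6 and 1 (3.85%) lower, with a median of 1.43 log2 units. Of 198 on autosomes alone, 26 (13.1%) were higher and 10 (5.05%) lower, with a median of 0.35. Apart from the 2 X-linked clusters described, the higher assays on X were miR-98, miR-504 and miR-547 (1.70 ± 0.50, adjusted p = 0.0281). By the median assay 10 of the 26 were higher, all from the 14, against 13.3% over all assays. Lower by it were 7 of the 26, among them miR-223 (-2.15), miR-221 and miR-222. That is near the 26.6% lower over all assays. Members of a cluster share a transcript and are not independent.

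Outside the lists, 2 further called miRNAs are given for their values. miR-675-3p, cut from the H19 RNA that is abundant in differentiating muscle, came 9.98 to 11.35 cycles after MammU6 in differentiation medium and 11.92 to 13.70 in growth medium (2.05 ± 0.49, adjusted p = 0.00889), with no overlap of rows. miR-298 came at 11.44 to 12.37 against 12.96 to 14.07 cycles (1.57 ± 0.39, adjusted p = 0.0107). Its neighbour on chromosome 2, miR-296, did not pass with either arm, at 1.38 ± 0.56 (5p) and 0.76 ± 0.83 (3p).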
